A study of Drosophila melanogaster with 4 samples.

Results

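The heat shock proteins described here were taken by gene symbol. Of 10 genes named (Hsp22, Hsp23, Hsp26, Hsp27, Hsp67Ba, Hsp67Bc, Hsp68, Hsp83, Hsc70-4 and l(2)efl), 5 had a probe whose only symbol in the platform annotation was theirs. These were Hsp26, Hsp27, Hsp68, Hsc70-4 and l(2)efl, with 10 of the 17328 probes of this kind and 5 of the 10804 genes. Hsp22, Hsp23, Hsp67Ba, Hsp67Bc and Hsp83 were not analysed here, so nothing is said of them. The RNA came from pole cells, which give rise to the germ line of the Drosophila melanogaster embryo, sorted by FACS on the EGFP-Vas marker at stages 8 to 14. In the first driven group, mothers homozygous for the maternal germ-line driver nosGal4:VP16 were mated with males that carried EGFP-Vas and UAS-tao-1(D168A), the form of the kinase Tao that the labels call dominant negative. In the second driven group the same driver mothers were mated with males that carried EGFP-Vas and UAS-tao-1(D168D), which the series title calls wild-type and whose sample titles carry the tag gof. The non-driven group of each form had yw mothers and the same fathers, so that all cells carried the transgene and EGFP-Vas. In each form, effects of the mothers' genotype and effects of the transgene cannot be told apart.

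Heat shock proteins are molecular chaperones. Small heat shock proteins hold unfolding proteins without using ATP, Hsp70 proteins bind and release them in an ATP-driven cycle started by J-domain partners, and Hsp90 proteins finish the folding of signalling proteins such as kinases. Some are made only after stress through the heat shock factor Hsf, others are made at all times, and in the fly several small heat shock genes are also switched on in the ovary and during development.

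Each form was measured on 2 two-colour arrays of opposite dye orientation. The arrays of a form name the same pair of RNA sources and share a number in their titles. From this they were taken as a dye swap of the same RNA and counted as 1 replicate, and a single form allows no test. All values are log2 ratios of driven over non-driven cells, and ± is how far each array lay from the form mean, which covers hybridisation and dye only. A ratio carries no level, so neither the abundance of these RNAs nor the presence of pole cell markers could be read, and the depth of signal over background is unknown. A ratio in sorted bulk RNA does not tell a change in cell number from a change in RNA per cell. Tao, the gene on the transgene, had form means of 2.91 ± 0.068 (D168A) and 3.01 ± 0.024 (D168D), higher in driven cells on 4 of 4 arrays. Across all genes the arrays of a form hardly correlated (r = -0.10 for D168A and 0.012 for D168D over 10804 genes, which are not independent replicates).

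With D168A, the ratios of the 5 heat shock genes lay between -0.30 and 0.19 on the log2 scale. With D168D, Hsp68 and Hsp27 were the members farthest from 0, at 0.92 ± 0.42 (1.90-fold) and 0.66 ± 0.045 (1.57-fold), and the other members lay between -0.13 and 0.051. To be called, a gene had to pass 2-fold on each array of a form and keep its direction. By that rule 0 of 5 members were called with D168A, where 0.157% of all genes were, and 0 of 5 with D168D, where 0.167% were.

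**Figure D1:**
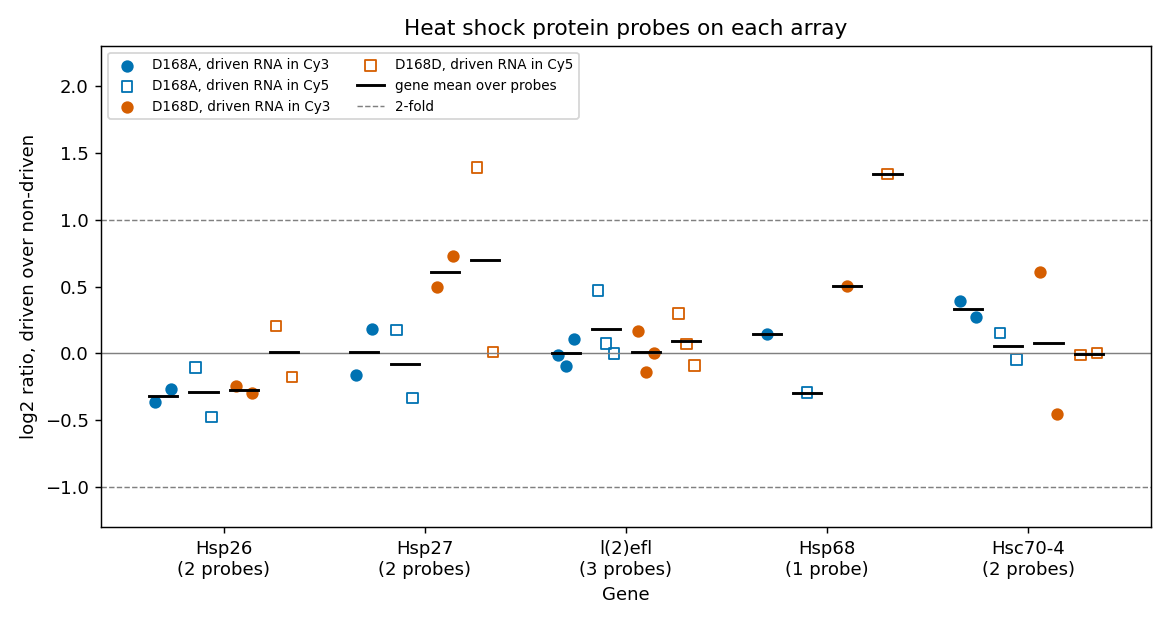
Log2 ratio of driven over non-driven cells (vertical axis) for every probe of the 5 heat shock genes (horizontal axis) on each of the 4 arrays. Blue marks D168A and orange D168D, filled circles the arrays with driven RNA in Cy3 and open squares those with it in Cy5. Black bars are gene means over probes and dashed lines mark 2-fold. On the Cy5-driven D168D array, Hsp68 and 1 Hsp27 probe lie above the 2-fold line, at 1.34 and 1.39.

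Hsp27 is a small heat shock protein of the 67B gene cluster, known in the fly for expression in the ovary as well as after heat shock. With D168A it was at 0.011 on the array with driven RNA in Cy3 and at -0.080 on the array with it in Cy5, and with D168D it was at 0.61 and 0.70. In the mean of its probes both D168D arrays lay above both D168A arrays, and the D168D arrays differed little from each other. The share of all genes with that order of arrays was not counted. In the mean of the D168D arrays, 98.8% of all genes lay lower than Hsp27.

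The 2 Hsp27 probes shared the direction with D168D but not the array. The first probe was at 0.49 on the Cy3-driven D168D array and at 1.39 on the Cy5-driven one. The second was at 0.73 and 0.011, so that its ratio rested on the Cy3-driven array. The closeness of the gene means on the D168D arrays thus came from averaging 2 probes that differed on each array. Their form means, 0.94 and 0.37, were 0.57 apart, and 88.1% of the 5531 genes with several probes had a narrower range with D168D. With D168A the same probes were at 0.0061 and -0.075 in the mean of both arrays. On the Cy3-driven D168A array the second probe was at 0.18, above its 0.011 on the Cy5-driven D168D array. Thus only the first probe had both D168D arrays above both D168A arrays.

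At a lower threshold of 1.5-fold on both arrays, chosen as an alternative, Hsp27 was the 1 of 5 members that met the rule as higher with D168D. Of all genes, 0.768% met it in that direction. Neither Hsp27 probe met it alone: the first missed it on the Cy3-driven array (0.49) and the second on the Cy5-driven one (0.011). Hsp68 missed the rule through its Cy3-driven array.

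Hsp26, a neighbour of Hsp27 in the same cluster and also a small heat shock protein of the ovary, had ratios below 0 on 3 of 4 arrays. With D168A it was at -0.32 (Cy3-driven array) and -0.29 (Cy5-driven array), and with D168D at -0.27 and 0.013. The D168A mean of -0.30 ± 0.013 (0.81-fold) had 2.92% of all genes below it, and the D168D mean of -0.13 ± 0.14 had 30.2% below it. The Hsp26 probes had D168A means of -0.24 and -0.37 and D168D means of -0.020 and -0.24, so both were below 0 in either form mean. The single Hsp26 value above 0 at the gene level came from 1 probe at 0.20, while the other was at -0.18 on that array.

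By the order of genes in RefSeq (Release 6 plus ISO1 MT, used for order only), the cluster from Hsp67Bc to Hsp27 holds 9 genes, of which 3 were measured here. Besides Hsp26 and Hsp27 this was CG4461, another gene for a small heat shock protein, named after its values were seen. With D168A, CG4461 was at -0.094 (Cy3-driven array) and 0.55 (Cy5-driven array), and with D168D at 0.31 and -0.0023. In both forms the arrays of CG4461 lay on opposite sides of 0, as did the D168D arrays of Hsp26. In cluster order the 3 measured genes had D168D means of 0.15 ± 0.16, -0.13 ± 0.14 and 0.66 ± 0.045. Of these, only Hsp27 kept its direction on both D168D arrays, so a common direction could not be read.

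The gene l(2)efl encodes a small heat shock protein related to alpha-crystallin, outside that cluster. With D168A it was at 0.0021 (Cy3-driven array) and 0.18 (Cy5-driven array), and with D168D at 0.0092 and 0.092. It was the 1 member above 0 on 4 of 4 arrays, but the form means were only 0.092 ± 0.090 and 0.051 ± 0.041. Of its 3 probes, 1 was at 0.23 in both forms, and the other 2 lay between -0.044 and 0.055 in the form means.

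Hsp68 is a heat-inducible relative of Hsp70 and had 1 probe. With D168A it was at 0.15 on the Cy3-driven array and at -0.29 on the Cy5-driven array. With D168D it was at 0.50 and 1.34. Both D168D arrays lay above both D168A arrays, an order whose share over all genes was not counted. The D168D mean was above that of 99.6% of all genes, although the D168D arrays were 0.84 apart. On the Cy5-driven D168D array alone Hsp68 exceeded 2-fold, so the size of its ratio depends on that array. Whether this probe also binds transcripts of the closely related Hsp70 genes was not tested, since no probe sequence was used here.

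Hsc70-4 encodes the main Hsp70 protein made without stress, which also removes clathrin from coated vesicles. With D168A it was at 0.33 (Cy3-driven array) and 0.052 (Cy5-driven array), and with D168D at 0.078 and -0.0034. The means of 0.19 ± 0.14 and 0.037 ± 0.040 were smaller than the gaps between their arrays. The Hsc70-4 probes gave 0.27 and 0.11 with D168A, but opposite signs with D168D (0.30 and -0.23). On the Cy3-driven D168D array they were at 0.61 and -0.45, the widest disagreement on 1 array between probes of these genes, apart from Hsp27 on the Cy5-driven D168D array.

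**Figure D2:**
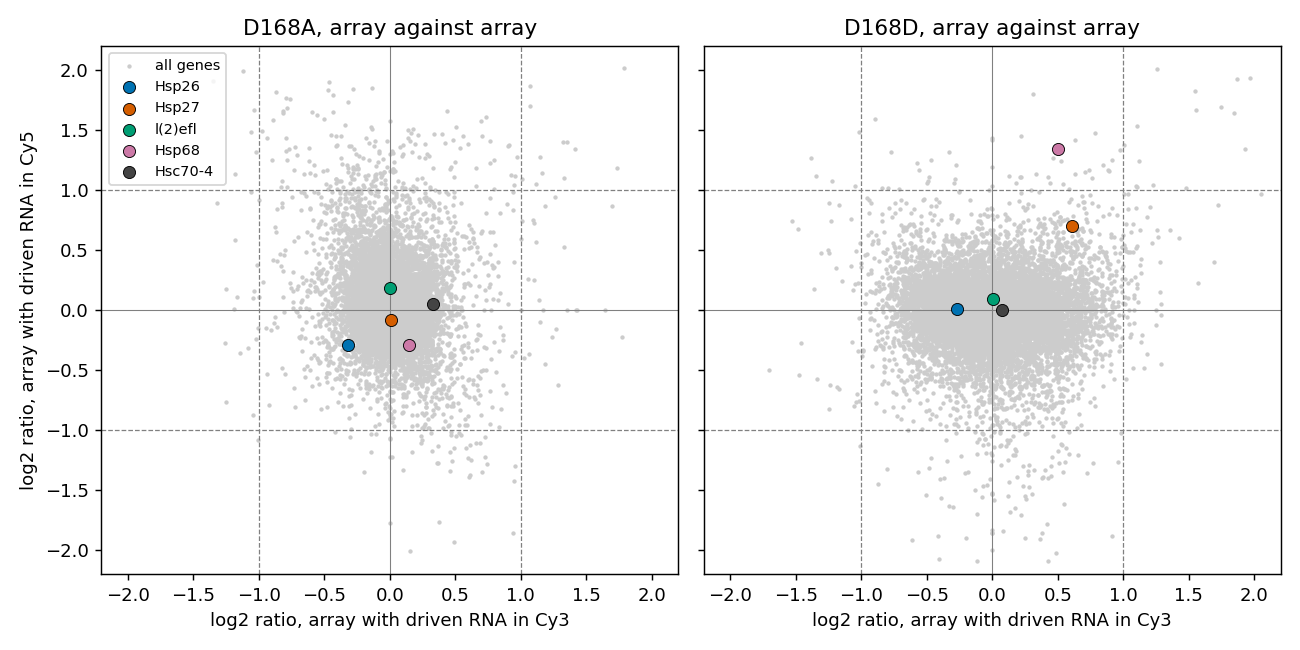
Log2 ratio of driven over non-driven cells on the array with driven RNA in Cy3 (horizontal axis) against that with it in Cy5 (vertical axis), for D168A on the left and D168D on the right. Grey points are all genes, of which 6 with D168A and 11 with D168D lie beyond the axes, and coloured points are the 5 heat shock genes. Dashed lines mark 2-fold. With D168D, Hsp27, Hsp68 and l(2)efl lie in the upper right quadrant, l(2)efl close to 0 (0.0092 and 0.092). With D168A all 5 genes lie inside the 2-fold lines, Hsp26 at -0.32 and -0.29.

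Both arrays were above 0 for 2 of 5 members with D168A (Hsc70-4 and l(2)efl), where 24.4% of all genes had that pattern. With D168D this held for 3 of 5 (Hsp27, Hsp68 and l(2)efl), where 23.3% of all genes had it. The median over the 5 members was -0.034 with D168A and 0.051 with D168D, against 0.012 and -0.015 over all genes. The median gap of an array to its form mean was 0.090 and 0.045 for the members, against 0.11 and 0.16 over all genes. The value of 0.045 with D168D was that of Hsp27, where averaging 2 unlike probes made it small. Taken singly, those probes had D168D gaps of 0.45 and 0.36. None of these 5 genes had a probe listed at 0 on any array, whereas 4.36% of all genes did.

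The forms were then set against each other within each dye orientation, which removes what the driver and the mothers give alike in both pairs. In Hsp68 the difference of D168A from D168D was -0.997 ± 0.64 on the log2 scale, at -0.36 where driven RNA was in Cy3 and -1.64 where it was in Cy5. In Hsp27 it was -0.69 ± 0.091, at -0.60 and -0.78. For these genes 0.0741% and 0.565% of all genes had a lower difference. The other members had differences of -0.18 ± 0.13 (Hsp26), 0.041 ± 0.049 (l(2)efl) and 0.16 ± 0.099 (Hsc70-4).

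With a rule of 2-fold in both orientations, 0 of 5 members were called between the forms, where 0.139% of all genes were. At 1.5-fold, Hsp27 was again the 1 member that met the rule, as lower with D168A, and 0.278% of all genes met it in that direction. By probe, the first Hsp27 probe met it (-0.66 and -1.22), and the second did not (-0.54 and -0.34). The difference was below 0 in both orientations for 3 of 5 members (Hsp26, Hsp27 and Hsp68), where 17.2% of all genes had that pattern. Each form is 1 replicate, so these differences have no test across replicates.

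**Figure D3:**
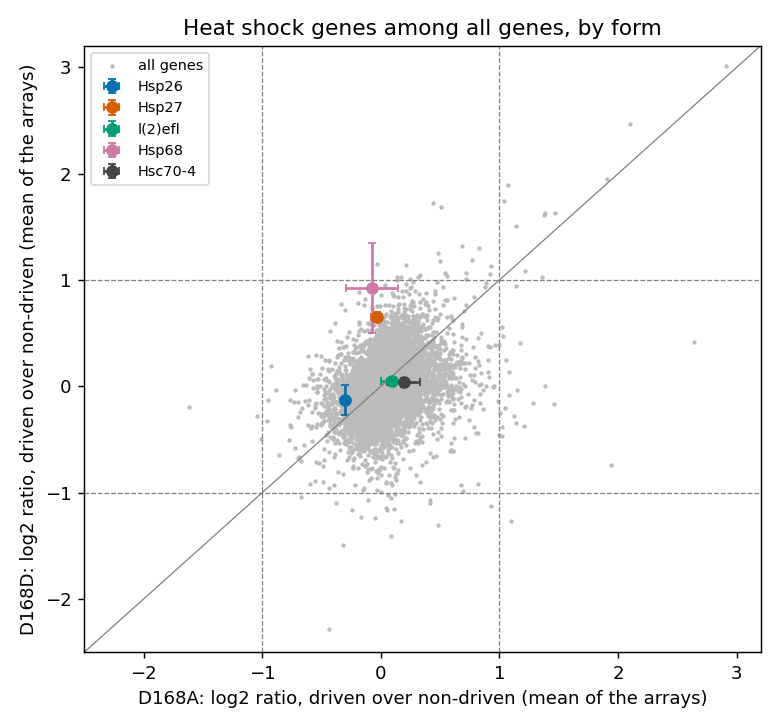
Mean log2 ratio of driven over non-driven cells with D168A (horizontal axis) against D168D (vertical axis). Grey points are all genes, coloured points the 5 heat shock genes, and their bars reach to either array. Dashed lines mark 2-fold and the solid line equal ratios in both forms. Hsp68 and Hsp27 lie near 0 on the D168A axis and at 0.92 and 0.66 on the D168D axis, where 99.6% and 98.8% of all genes lie lower. The other 3 genes lie between -0.13 and 0.051 on the D168D axis.

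The contrast common to both forms was tested across the form means, with limma on the 2 form means against 0 over all genes, two-sided and with Benjamini-Hochberg adjustment. It called 0 of 5 members, where 0.0555% of all genes were called, and at an unadjusted p under 0.05 it gave 0 members, where 13.2% of all genes were under it. Fitted by probe, it called 0 of 10 member probes, where 0% of all probes were called. Of the 10, 3 had an unadjusted p under 0.05 (1 each of Hsc70-4, Hsp26 and l(2)efl, lowest limma adjusted p = 0.418), where 11.2% of all probes had. Hsp26 had a mean of -0.22 (SE 0.093, limma adjusted p = 0.389) and was lower in 3 of 4 arrays. Hsp68 had a mean of 0.42 (SE 0.23, limma adjusted p = 0.434) and Hsp27 of 0.31 (SE 0.17, limma adjusted p = 0.435), and both were higher on 3 of 4 arrays. For Hsc70-4 and l(2)efl the means were 0.11 and 0.071, with limma adjusted p-values of 0.536 and 0.676. With 2 form means per gene, these p-values measure only the spread between the pairs. That spread holds any difference between the forms as well as technical error, and the fit cannot separate them. A change in 1 form only widens the SE, so this contrast could not test such a change in Hsp68 or Hsp27.

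Other genes of the chaperone network were described by family, from a list chosen with earlier results of these data known. Of these, 40 were measured, 0 met the 2-fold rule in either form or between the forms, 0 met the 1.5-fold rule, and 0 passed limma in the common contrast, against the shares of all genes given above. An unadjusted limma p under 0.05 was reached by 3 of the 40 in that contrast (DnaJ-1, mora and CG13133), a smaller share than the 13.2% of all genes. Their median was -0.0078 with D168A and 0.043 with D168D, against 0.012 and -0.015 over all genes, and 19 and 25 of the 40 were above 0 in the form means, where 53.2% and 47.0% of all genes were.

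DnaJ-1, the heat-inducible J-domain partner of Hsp70, had the highest mean over the 4 arrays among these genes. With D168A it was at 0.10 (Cy3-driven array) and 0.29 (Cy5-driven array), and with D168D at 1.002 and 0.55. The D168D mean of 0.77 ± 0.23 was above that of 99.3% of all genes, and the difference of D168A from D168D was -0.58 ± 0.32. In the common contrast DnaJ-1 was at 0.48 (SE 0.15, limma adjusted p = 0.361), higher on 4 of 4 arrays. Next came mora, a cochaperone of Hsp90, at 0.19 ± 0.057 with D168A and 0.31 ± 0.46 with D168D, and Trap1, the mitochondrial Hsp90 protein, at 0.042 ± 0.076 and 0.45 ± 0.25.

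The lowest means over the 4 arrays were those of CG13133, of the small heat shock family, CCT1, a subunit of the cytosolic chaperonin, and DnaJ-H, a J-domain protein. For CG13133 the form means were -0.36 ± 0.38 (D168A) and -0.17 ± 0.0082 (D168D). CCT1 had -0.046 ± 0.042 and -0.25 ± 0.00022, and DnaJ-H had 0.026 ± 0.044 and -0.30 ± 0.15. None of these 3 was beyond 1.5-fold on both arrays of a form.

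The heat-inducible Hsp70 genes themselves and Hsf were named after their values were seen. Hsp70Ab, by its 2 probes of a single symbol, had form means of -0.0036 ± 0.099 (D168A) and 0.28 ± 0.17 (D168D). For Hsp70Bc they were -0.20 ± 0.30 and 0.041 ± 0.091. The Hsp70 copies are nearly identical, so these probes may report several of them. Those of Hsf were -0.012 ± 0.11 and 0.046 ± 0.28.

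By family, the 7 other Hsp70 genes had medians of -0.039 with D168A and 0.0014 with D168D, and the 12 chaperonin genes of -0.0079 and 0.033. The 8 J-domain genes were at 0.027 and 0.15 and the 7 cochaperones at -0.032 and 0.051. The other 3 small heat shock genes were at -0.042 and -0.15. The 2 other Hsp90 genes, Gp93 of the endoplasmic reticulum and Trap1, were at 0.037 and 0.32 in the median. Among these families, the Hsp90 pair had the largest gap between the medians of the forms, but over 2 genes only. On the Cy3-driven and Cy5-driven D168D arrays Gp93 was at -0.026 and 0.43. Trap1, with 1 probe, was at 0.70 and 0.19.

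**Figure D4:**
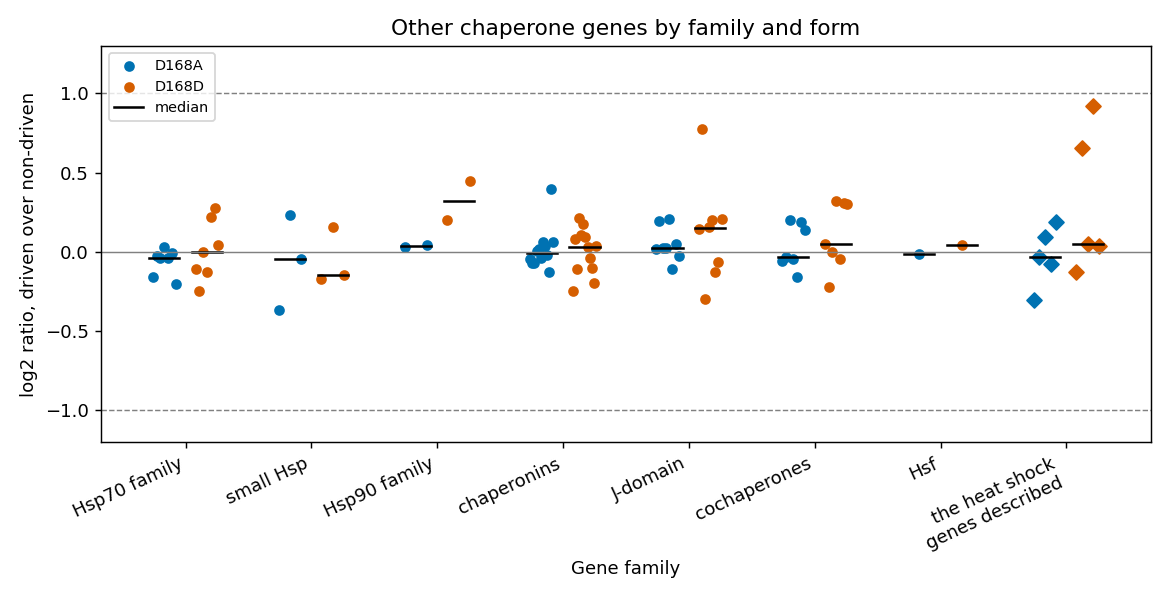
Mean log2 ratio of driven over non-driven cells (vertical axis) for the other chaperone genes by family (horizontal axis), with D168A in blue left of D168D in orange. Each circle is a gene, diamonds are the 5 heat shock genes, black bars are medians and dashed lines mark 2-fold. With D168D, DnaJ-1 at 0.77 stands above the other J-domain genes, and Hsp68 at 0.92 and Hsp27 at 0.66 above the other members.

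Hsp68 was the member whose mean over the 4 arrays was farthest from 0. By Euclidean distance over the 4 arrays, the genes nearest to it were en (0.34), velo (0.46), Tom (0.57), Slu7 (0.58) and tup (0.59). The transcription factor gene en had form means of -0.035 ± 0.10 (D168A) and 0.75 ± 0.31 (D168D). Those of Tom, a Notch regulator related to Bearded, were 0.13 ± 0.0069 and 1.03 ± 0.18. All 5 had a higher ratio with D168D than with D168A, as Hsp68 had. At these distances from Hsp68, that direction was fixed by the way the 5 genes were chosen. The 4 arrays they share are the whole basis of this likeness.

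Of 12 germ-line marker genes listed, 8 were measured and 0 met the 1.5-fold rule in either form. Their median was 0.12 with D168A (range 0.029 to 0.43, 8 of 8 above 0, against 53.2% of all genes). With D168D it was 0.32 (range -0.12 to 0.47, 7 of 8 above 0, against 47.0% of all genes). The defining markers vas, nos and pgc were not analysed here. By array, the germ-line medians were 0.23 (Cy3-driven) and 0.069 (Cy5-driven) with D168A, and 0.51 and 0.11 with D168D. Lists for other cell types had D168A medians between -0.011 (neurons and glia) and 0.13 (hemocytes and fat body). With D168D their medians lay between -0.039 (muscle) and 0.14 (gonadal soma). The part of these ratios in those of Hsp27, Hsp68 and DnaJ-1 was not tested.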

How the data were processed

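Pole cell RNA was measured on 4 two-colour Agilent arrays, 2 per form of Tao with opposite dyes, from 100 ng of total RNA each, per the labels. The authors deposited a log10 ratio per feature, and the submitters' processing notes name Agilent Feature Extraction 7.1; the handling of background, dyes and centring is not given in the sources used here. Log base 10 was inferred from that software and from values that stop at 2 and -2. The values were taken as driven over non-driven on all 4 arrays: zeros are written as negative on both Cy3-driven arrays only (446 and 583), and 314 unnamed features beyond 10-fold on every array have opposite signs in the 2 orientations. No sign was turned, and the ratios were converted to log2.

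Of 22575 features, 17328 had 1 gene symbol, 326 several and 4921 none. By gene ID, 17324 of the 17328 matched RefSeq. Probes were averaged into 10804 genes. The arrays' medians over genes lay between -0.0022 and 0.014 (log2). The common contrast used limma 3.58.1 (R 4.3.3, lmFit and eBayes, 1 residual degree of freedom per gene) at an adjusted p under 0.05. It was also run on simulated data, where the planted changes were 2-fold or larger and alike in both forms. Smaller changes and changes in 1 form only were not simulated. The members and lists were chosen with earlier results of these data known. Genes named by rule beside the members were the 3 highest and 3 lowest other chaperones by mean over the arrays, and the 5 genes nearest to the member farthest from 0. CG4461, Hsp70Ab, Hsp70Bc, Hsf and Gp93 were named outside that rule, with their values seen. The order of genes in the cluster and newer gene names came from RefSeq. No sequence was used.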

Additional observations from a re-analysis of the deposited data

How the results depend on the processing

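The counts of members called by the 2-fold rule (0 with D168A, 0 with D168D and 0 between the forms) were 0 in each case after centring each array, without probes listed at 0, and by probe, where 0 of 10 probes were called. Of all genes, 0.113% to 0.169% were called after centring or without probes listed at 0. By probe, 0.185%, 0.231% and 0.167% of all probes were called. At 1.5-fold the member counts were 0, 1 and 1, by construction of a lower threshold, and the 1 was Hsp27 in the mean of its probes. Of all genes, 0.574%, 1.08% and 0.824% met that threshold in either direction. With D168D neither Hsp27 probe met that threshold alone. On the Cy3-driven arrays alone the member counts were 0 in each comparison, where 0.611%, 1.11% and 1.24% of all genes were called. On the Cy5-driven arrays alone they were 0, 1 and 1, and the 1 was Hsp68. Of all genes, 2.45% were called there with D168A, 1.81% with D168D and 4.05% between the forms. The cause was not tested. limma with the 4 arrays taken as replicates called 0 members in each comparison and 1, 1 and 0 of all genes. The arrays of a form were taken to share their RNA, and on that reading the p-values of that fit cover hybridisation error only and are too small. Hsp27 and Hsp68 had unadjusted p-values of 0.00455 and 0.0104 with D168D (limma adjusted p = 0.591 and 0.601) and of 0.0162 and 0.0300 between the forms (limma adjusted p = 1 for both). The common contrast called 0 members under each of its alternatives, where at most 0.132% of all genes or probes were called. The members' median with D168D, 0.051, was 0.037 with the median of a gene's probes, and 0.078 with driven RNA in Cy3 alone and 0.092 with it in Cy5 alone. The median with D168A was -0.034, and 0.011 and -0.080 on the Cy3-driven and the Cy5-driven array alone. Between the forms it was -0.18, and -0.047 and -0.30 on those arrays. No paired analysis was possible because each form has 1 replicate number. The number of arrays limits the precision, and 5 measured genes cannot speak for the 5 not analysed here.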
